A study of Mus musculus with 2 samples.

Results

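The nuclear genes of the mitochondrial respiratory chain and ATP synthase were examined at their promoters in the mouse frontal cortex. Members were all protein-coding genes of GENCODE M21 on chromosomes 1 to 19 whose symbol begins with Nduf, Sdh (Sdha to Sdhd), Uqcr, Cox (Cox4 to Cox8 with subunit letters) or Atp5. This gave 91 gene records, with 90 different symbols because Atp5o has 2 records, of 20807 protein-coding genes on those chromosomes. By symbol, 36 belonged to complex I, 8 were complex I assembly factors (Ndufaf), 4 belonged to complex II, 8 to complex III, 17 to complex IV and 18 to complex V. The X-linked genes Ndufa1, Ndufb11 and Cox7b lie outside the rule. The rule uses symbols and chromosomes alone.

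The chromatin came from frontal cortex of female B6CASTF1/J mice (a B6 by CAST cross) aged 36 days, and was assayed by DNase-seq, in which DNase I cuts nuclear DNA where it is not covered by nucleosomes or other proteins. There was 1 group with 2 biological replicates and no treatment or other genotype. Both replicates carry the same donor label, so their spread may be partly technical. A peak is a region of dense cutting, and a footprint is a short stretch protected from cutting, inside a peak or not. The signal of a peak is the authors' density normalized for read depth. Replicate 1 had 29700 peaks and 112826 footprints and replicate 2 had 66512 and 250543. Were the smallest step between signal values worth 1 tag per M (mega), replicate 1 would hold 84.9 M tags and replicate 2 103 M. Of 10 cortical neuron markers, 5 were open at the promoter in both libraries and 7 in replicate 2, near the shares of all protein-coding genes (52% and 61.2%). Camk2a (1.81 and 3.54) was among the 5, and Slc17a7, Gad1 and Slc32a1 had no peak there in either. None of 3 microglial, 3 endothelial and 6 muscle marker genes had one. Of 4 astrocyte markers 3 were open in each replicate, of 4 oligodendrocyte markers 2 in replicate 2 only, and of 2 liver markers Alb in replicate 2 only (0.379). In bulk tissue, an open promoter in few cells and a weaker opening in all cells cannot be told apart.

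The respiratory chain passes electrons from NADH (complex I) and succinate (complex II) through complex III and cytochrome c to oxygen at complex IV, and complex V uses the resulting proton gradient to make ATP. Most subunits are encoded in the nucleus, and neurons rely heavily on this pathway for their ATP. The promoters of these genes have long been studied as targets of NRF1, of the ETS factor GABP, of YY1 and SP1, and of the ERR receptors with their PGC-1 coactivators. Several complex IV subunits have a general form and a form largely restricted to heart and skeletal muscle, lung or testis.

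The following sequences are footprints with their flanking bases at members with high promoter signal, chosen because a motif match is centred in the protected stretch of replicate 2. Each of these footprints overlaps one of replicate 1, which at Ndufaf4 and Ndufs7 does not hold the centre of the match. The footprints at Ndufaf8 and Cox6a1 lie outside the promoter peak of replicate 2. They are read 5′ to 3′ on the strand of the gene from the mm10 reference (the B6 strain, so CAST differences are not shown), and capitals mark the motif match. In the first 4 the capitals are the NRF1 letters GCGCATGCG or their reverse complement.
Ndufaf5, chr2:140170655-140170680, plus strand: cccgttgGCGCATGCGcctaatagaa
Ndufaf4, chr4:24897963-24897988, plus strand: gatgtctGCGCATGCGcctgtgcgga
Cox6c, chr15:35938172-35938197, minus strand: tcgactcttGCGCATGCGtgctgctg
Cox6a1, chr5:115349103-115349128, minus strand: ggaacggggCGCATGCGCgctctcgc
In the next pair the capitals are the YY1 letters AAGATGGCG, in footprints centred 10 bp downstream of a start of Ndufaf8 and 2 bp upstream of one of Ndufs7.
Ndufaf8, chr11:120098940-120098965, plus strand: gcccAAGATGGCGgcgccctcgagag
Ndufs7, chr10:80249469-80249494, plus strand: ggccAAGATGGCGgcgctggcgggtg
The last 4 hold an SP/KLF match (GGGCGG or its reverse complement), an NFY match (CCAAT), a CRE match (TGACGTCA) and a TATA match (TATAAA, here on the opposite strand).
Uqcrq, chr11:53430980-53431005, minus strand: agcgcctctaagctCCGCCCagccct
Atp5g1, chr11:96075842-96075867, minus strand: gattcgaCCAATcgtaaccccgaact
Uqcrfs1, chr13:30545332-30545358, minus strand: tccggcgtcgcgcTGACGTCAcaaacc
Ndufa7, chr17:33824512-33824537, plus strand: ggatgcctTTTATAgtcggctctgac

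Nearly all general respiratory chain genes had an open promoter in the cortex. A promoter peak, meaning any overlap with the 500 bp to either side of an annotated transcription start, was found for 81 of 91 members in replicate 1 (89.0%, 95% Wilson interval 80.9% to 93.9%), against 52.2% of all protein-coding genes. In replicate 2 it was found for 82 of 91 members (90.1%, interval 82.3% to 94.7%), against 61.2%. The same 81 members had one in both replicates, where the share of all genes was 52%. The count averaged 81.5 ± 0.707 members (SD, n = 2). Genes are not replicates of a condition, and intervals cover counting error only, so these shares are descriptions with no test. Among other large housekeeping assemblies, 78 of 78 mitochondrial ribosome genes and 37 of 39 proteasome genes had a peak in both replicates. Of the members, 9 had a peak in neither replicate, against 38.6% of all genes. In the longer list of peaks that the authors also deposited, 83 members had a promoter peak in replicate 1, against 59.5% of all genes, and 83 in replicate 2, against 65.7%. It was the same 83 in both, against 59.2%. Bases with an FDR under 0.05 lay within 500 bp of the 5′ end at 82 members in replicate 1, against 55.4% of all genes, and at 83 in replicate 2, against 61.4%.

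Signal at the member promoters lay in the upper part of the range of all promoters. The highest promoter peak per member had a median signal of 3.0 in replicate 1 and 4.97 in replicate 2, which average 3.99 ± 1.39 (SD, n = 2). All protein-coding genes with a promoter peak had medians of 2.30 and 3.58. The member medians exceeded 72.3% and 71.0% of those promoters. Over genes with a peak in both replicates the medians in replicate 2 were 5.04 for members and 4.07 for all. Mitochondrial ribosome genes had medians of 2.43 and 4.31, and proteasome genes 2.59 and 4.43. Member signals spanned 1.16 to 7.54 in replicate 1 and 1.02 to 11.2 in replicate 2.

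**Figure D1:**
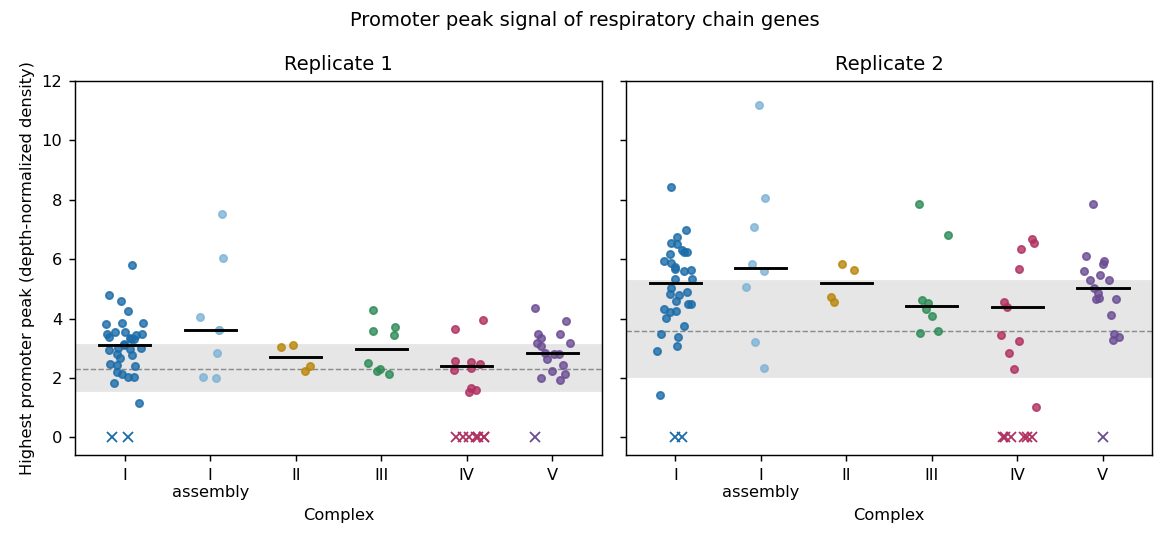
Highest promoter peak of each member (points, depth-normalized density) by complex in each replicate, with the median of each complex as a black bar and members without a promoter peak as crosses at 0. The grey band holds the middle of all promoters with a peak (25th to 75th percentile, 1.57 to 3.10 in replicate 1 and 2.05 to 5.27 in replicate 2), and most crosses are in complex IV.

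Replicate 2 had the higher signal at 81 of 81 members, and the highest peaks of the replicates overlapped at 81 of 81. Per member, signal in replicate 2 over replicate 1 had a median log2 ratio of 0.73, or 1.66-fold, with quartiles of 0.54 and 0.91. The same direction held at 10721 of 10816 genes with a promoter peak in both, with a median of 0.79. Across the 81 members the log2 signals of the replicates had a Pearson r of 0.85 and a Spearman rho of 0.81, given as a description since the points share 2 libraries. Cox8a had the largest ratio, at 2.33 and 6.35 (log2 ratio 1.44). Uqcr10 and Ndufaf6 had the smallest (both 0.24).

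**Figure D2:**
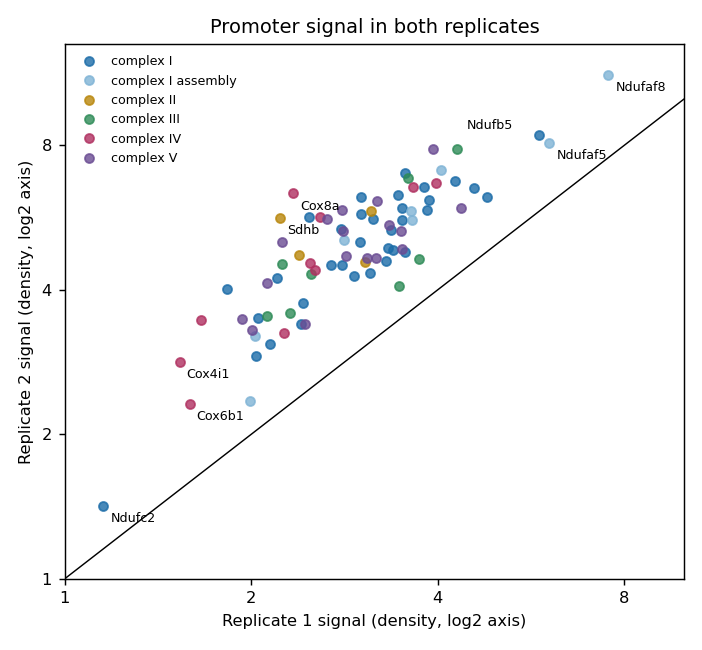
Promoter signal of the 81 members with a peak in both replicates, replicate 1 on the x axis and replicate 2 on the y axis (density, both log2 axes), coloured by complex, with the line of equal values. All points lie above the line, with Ndufaf8 at the top right and Ndufc2 at the bottom left.

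Complex I, the NADH dehydrogenase and entry point of most electrons, had a promoter peak at 34 of 36 genes in both replicates, with median signals of 3.13 and 5.18. Ndufb5, an accessory subunit of the membrane arm, was its highest gene with 5.82 in replicate 1 and 8.42 in replicate 2. Its peak covered chr3:32736701-32737100 in both, across the gene's 5′ end at 32736990 on the plus strand. Ndufc2, another accessory subunit, was the lowest with 1.16 and 1.42. Ndufb5 exceeded 99.2% and 97.1% of all promoters with a peak, and Ndufc2 exceeded 11.4% and 14.1%. Of the catalytic core, Ndufs7, which carries an iron-sulfur cluster, had 4.81 and 6.24, Ndufs1 had 4.26 and 6.75 and Ndufv2 had 1.83 and 4.02. These values lie within the range of the accessory genes.

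The 2 complex I genes without a promoter peak differed in kind. Ndufa13 encodes a membrane-arm subunit needed for complex I assembly. Its nearest peaks lay 563 and 758 bp from the annotated start at chr8:69902558, just outside the window, with signals of 3.99 and 3.30 in replicate 1 and 8.14 and 6.46 in replicate 2. The RefSeq annotation of the same build starts this gene at position 69902020, and the peak at chr8:69901561-69901800 lies within 500 bp of that start. Its count of 0 turns on which start is used. Ndufa4l2, a hypoxia-induced relative of Ndufa4, had its nearest peak 1847 bp away in replicate 1 and 1867 bp away in replicate 2, and no base with an FDR under 0.05 within 500 bp of its 5′ end.

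All 8 complex I assembly factors had a peak in both replicates, with median signals of 3.62 and 5.72, the highest of the 6 groups in either replicate. Ndufaf8 had the highest signal of all members, 7.54 in replicate 1 and 11.2 in replicate 2, above 99.9% and 99.7% of promoters with a peak. That peak, at chr11:120098681-120098940 in both, also covers the space up to the gene Tepsin, which starts 197 bp away on the other strand. Ndufaf5, known in human for hydroxylating an arginine of NDUFS7, followed in replicate 1 with 6.06 and had 8.08 in replicate 2. Ndufaf6 was the lowest of the group with 1.99 and 2.35.

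Complex II, succinate dehydrogenase, had a peak at 4 of 4 genes in both replicates. Sdha, the flavoprotein that oxidizes succinate, had the highest signal with 3.12 and 5.84. Sdhb, the iron-sulfur subunit, was lowest in replicate 1 (2.23) but second in replicate 2 (5.64). Sdhc, a membrane anchor, had 2.39 and 4.73, and Sdhd, the other anchor, had 3.05 and 4.56, so the order within the complex was not stable between replicates.

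Complex III, the cytochrome bc1 complex, had a peak at 8 of 8 genes, with medians of 2.98 and 4.43. Uqcrq, a small ubiquinone-binding subunit, was highest with 4.30 and 7.85. Uqcrfs1, the Rieske iron-sulfur protein, had 3.58 and 6.82. The core proteins were lower, with 2.50 and 4.32 at Uqcrc1 and 2.12 and 3.52 at Uqcrc2, the lowest of the complex. Cyc1, the heme-bearing subunit that the symbol rule leaves out, had 1.26 and 1.57.

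Complex IV, cytochrome c oxidase, had a peak at 10 of 17 genes in both replicates. Its share was the lowest of the 6 groups (58.8%, against 52% of all protein-coding genes). Its median signal was 2.41 in replicate 1, the lowest of the 6, and 4.39 in replicate 2 over 11 genes that include a weak peak at Cox7a1. The other 7 genes were all tissue-specific isoforms, described next. Among the open ones Cox6c was highest with 3.97 and 6.67. Cox4i1, the main form of the largest nuclear subunit, had 1.53 in replicate 1 and 2.84 in replicate 2. Cox6b1, which faces the intermembrane space, had 1.59 and 2.31, and Cox7c had 1.66 and 3.47. These were the 3 lowest of the 10 in replicate 1, and Cox6b1 and Cox4i1 were again the lowest in replicate 2.

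The 8 isoform genes set apart were the tissue-specific Cox4i2, Cox6a2, Cox6b2, Cox7a1, Cox7b2, Cox8b and Cox8c, and the hypoxia-induced Ndufa4l2. They included none with a peak in both replicates, against 81 of the 83 other records. Cox7a1, the heart and skeletal muscle form of subunit 7a, had a peak in replicate 2 only (signal 1.02) at chr7:30184070-30184191, where the share of all genes with a peak in replicate 2 only was 9.24%. In the longer list Cox7a1 had 0.789 in replicate 1 and 1.02 in replicate 2. Cox6b2, the testis form of subunit 6b, was also in the longer list, with 0.565 and 0.573. Bases with an FDR under 0.05 within 500 bp of the 5′ end numbered 171 and 264 at Cox7a1 and 91 and 460 at Cox6b2. The other 6 had no promoter peak in either list, and none of these 6 had such a base in either replicate.

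Set against its general partner, each of 6 isoforms had no promoter peak or a lower one in both replicates. For subunit 4, Cox4i2 (lung) had none, with the nearest peak 11517 and 11487 bp away, against 1.53 and 2.84 at Cox4i1. For subunit 6a, Cox6a2 (heart and skeletal muscle) had none, against 3.65 and 6.54 at Cox6a1. For subunit 7a, Cox7a1 had none in replicate 1 and 1.02 in replicate 2, against 2.49 and 4.55 at Cox7a2. For subunit 8, Cox8b (heart and skeletal muscle) had none, with the nearest peak 2895 bp away at 1.31 and 1.90, against 2.33 and 6.35 at Cox8a. For subunit 6b, Cox6b2 had none, against 1.59 and 2.31 at Cox6b1. Ndufa4l2 had none, against 3.11 and 4.33 at Ndufa4, whose product is today counted as a complex IV subunit. The testis forms Cox7b2 and Cox8c had their nearest peaks 45893 bp and 20536 bp away in replicate 1 and 45845 bp and 13256 bp away in replicate 2. None of the 6 muscle markers and neither of the 2 testis markers Prm1 and Tnp1 had a promoter peak in either list.

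**Figure D3:**
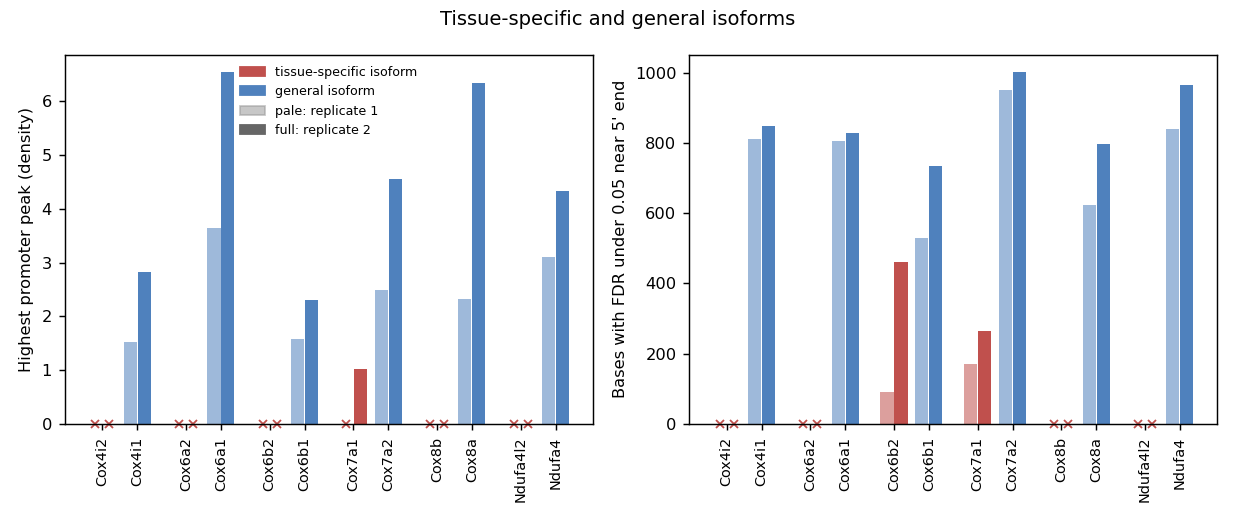
Tissue-specific isoforms and the hypoxia-induced Ndufa4l2 (red, left of each pair) and their general partners (blue, right), with replicate 1 pale and replicate 2 in full colour and crosses for 0. The left panel gives the highest promoter peak (density) and the right panel the number of bases with an FDR under 0.05 within 500 bp of the 5′ end, of 1001. Red bars appear only for Cox7a1 and Cox6b2.

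Promoter sequence differed between the paired isoforms of subunits 6a and 7a as well. The 250 bp upstream of the 5′ end are shown for subunits 6a and 7a, because Cox6a2 is the one member with a MEF2 match and Cox7a1 the isoform with a weak peak. All matches to the motifs searched are in capitals.
Cox6a2, chr7:128206388-128206637, minus strand: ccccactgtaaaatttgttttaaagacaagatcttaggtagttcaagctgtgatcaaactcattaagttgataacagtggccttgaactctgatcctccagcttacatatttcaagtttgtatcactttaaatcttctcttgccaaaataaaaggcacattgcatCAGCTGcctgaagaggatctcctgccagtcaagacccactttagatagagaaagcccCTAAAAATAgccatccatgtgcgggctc
Cox6a1, chr5:115348982-115349231, minus strand: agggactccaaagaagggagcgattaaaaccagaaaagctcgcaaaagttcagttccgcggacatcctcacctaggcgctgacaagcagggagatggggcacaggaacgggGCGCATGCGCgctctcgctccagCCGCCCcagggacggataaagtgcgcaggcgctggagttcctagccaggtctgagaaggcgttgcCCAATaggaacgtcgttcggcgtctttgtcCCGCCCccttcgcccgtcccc
Cox7a1, chr7:30183894-30184143, plus strand: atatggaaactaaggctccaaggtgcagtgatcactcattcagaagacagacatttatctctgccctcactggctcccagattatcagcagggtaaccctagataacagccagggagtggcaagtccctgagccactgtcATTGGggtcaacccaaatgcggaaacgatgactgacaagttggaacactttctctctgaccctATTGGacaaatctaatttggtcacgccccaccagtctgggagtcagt
Cox7a2, chr9:79759879-79760128, minus strand: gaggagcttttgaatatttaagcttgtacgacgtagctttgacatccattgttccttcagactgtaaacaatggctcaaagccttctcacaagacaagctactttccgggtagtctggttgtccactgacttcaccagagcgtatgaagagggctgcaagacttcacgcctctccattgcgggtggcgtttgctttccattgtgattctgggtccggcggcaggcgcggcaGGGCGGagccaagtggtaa
Cox6a2 held a MEF2 match (CTAAAAATA) from 28 to 20 bp upstream of the start and a muscle E-box (CAGCTG) from 85 to 80 bp upstream, and 1 CG dinucleotide in 250 bp. Cox8b and the testis form Cox8c also hold a muscle E-box match, as do the general genes Cox4i1 and Cox6c, while Cox7a1 holds none. Of the 8 isoform genes, 3 held a muscle E-box, against 14 of all 91 members and 15.5% of all protein-coding genes. SP/KLF matched at 4 of the 8, against 39 of the 91 and 43.7%. Both shares of the 8 were above those of all genes, but 8 genes are too few to tell whether either motif sets them apart. Cox6a1 held 22 CG dinucleotides, overlapping NRF1 matches from 139 to 130 bp upstream, 2 SP/KLF matches and an NFY match. The NRF1 match is the one inside the Cox6a1 footprint shown above. Cox7a1 held 3 CG dinucleotides and 2 NFY matches in the reverse orientation (ATTGG), against 12 CG dinucleotides and an SP/KLF match at Cox7a2. Over the 8 isoform genes the median ratio of observed to expected CG was 0.37, against 0.81 for the 83 other records and 0.54 for all protein-coding genes (0.76 for those with a peak in both replicates). A match is a description of the letters and does not show binding.

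Complex V, the ATP synthase, had a peak at 17 of 18 records, with medians of 2.84 and 5.04. The missing record is the second entry for Atp5o, whose start lies within the Atp5o gene itself, 4459 bp from the promoter peak of the main entry in replicate 1. In the catalytic head, Atp5b (beta) had 4.36 and 5.93, Atp5d (delta) 3.19 and 6.12, Atp5e (epsilon) 3.33 and 5.46, Atp5c1 (gamma) 2.65 and 5.61 and Atp5a1 (alpha) 2.44 and 3.40. The alpha and beta subunits alternate in the head in equal number, and the beta promoter had the higher signal in both replicates. The 3 genes that encode the same c subunit of the proton-driven ring kept their order in both replicates, with 3.92 and 7.86 at Atp5g1, 3.49 and 5.30 at Atp5g2 and 2.84 and 4.71 at Atp5g3. The lowest were Atp5o (1.93 and 3.48), the stalk subunit that confers oligomycin sensitivity, in replicate 1, and Atp5l (2.00 and 3.29), a membrane subunit, in replicate 2.

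Many members faced another gene across their promoter. Of 91 members, 32 (35.2%, interval 26.1% to 45.4%) had the start of another protein-coding gene on the opposite strand within 1000 bp upstream, against 11.3% of all protein-coding genes. Among genes with a peak in both replicates the shares were 39.5% of members and 19.5% of all. Mitochondrial ribosome genes had 29 of 78 (37.2%) and proteasome genes 9 of 39 (23.1%). By complex the counts were 13 of 36 in complex I, 4 of 8 assembly factors, 3 of 4 in complex II, 4 of 8 in complex III, 1 of 17 in complex IV and 7 of 18 in complex V. A shared peak cannot be assigned to either gene.

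Several partners work in the same organelle or in protein synthesis. Atp5j, subunit F6 of ATP synthase, starts 93 bp from Gabpa, which encodes the DNA-binding subunit of the ETS factor GABP, and both had the same highest peak (2.12 and 4.14). Ndufs6 starts 51 bp from Mrpl36, a mitochondrial ribosomal protein, and Sdhd starts 98 bp from Timm8b, a mitochondrial import chaperone. Ndufa7 starts 10 bp from Rps28, a cytosolic ribosomal protein, and Ndufs1 starts 3 bp from Eef1b2, an elongation factor. Cox4i1, the lone case in complex IV, starts 101 bp from Emc8. Members with such a neighbour had median signals of 3.06 and 4.76, and members with a peak but no such neighbour had 2.99 and 5.30. For all genes with a peak in both replicates, those with a neighbour had 2.86 and 5.02 and those without had 2.16 and 3.81.

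Protected stretches lay close to the starts. Within 500 bp of a start the members held 455 footprints in replicate 1 and 584 in replicate 2, a median of 5 and 6 per member, against 2 and 4 over all protein-coding genes and 5 and 7 over genes with a peak in both. A footprint was found at 81 members in replicate 1, against 56.7% of all genes, and at 83 in replicate 2, against 63.6%, with 81 in both, against 56.3%. Their median width was 10 and 11 bp, against 9 and 9 bp. A peak held 86.6% and 79.1% of the member footprints, against 77.4% and 78.5% for all genes, and the rest lay outside the peaks. Of the member footprints, 67.3% and 66.8% lay within 100 bp of a start, against 55.4% and 53.7% for all genes, and 31.2% and 27.6% lay in the 50 bp just upstream of it, against 20.9% and 19.3%. Atp5g2 had 14 and 13 footprints, Uqcrq 10 and 14, Ndufaf8 10 and 13, and Atp5j 9 and 16. Of the member footprints, 65.1% in replicate 1 overlapped one in replicate 2 and 48.6% in replicate 2 overlapped one in replicate 1, against 57.2% and 36.8% for all genes.

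**Figure D4:**
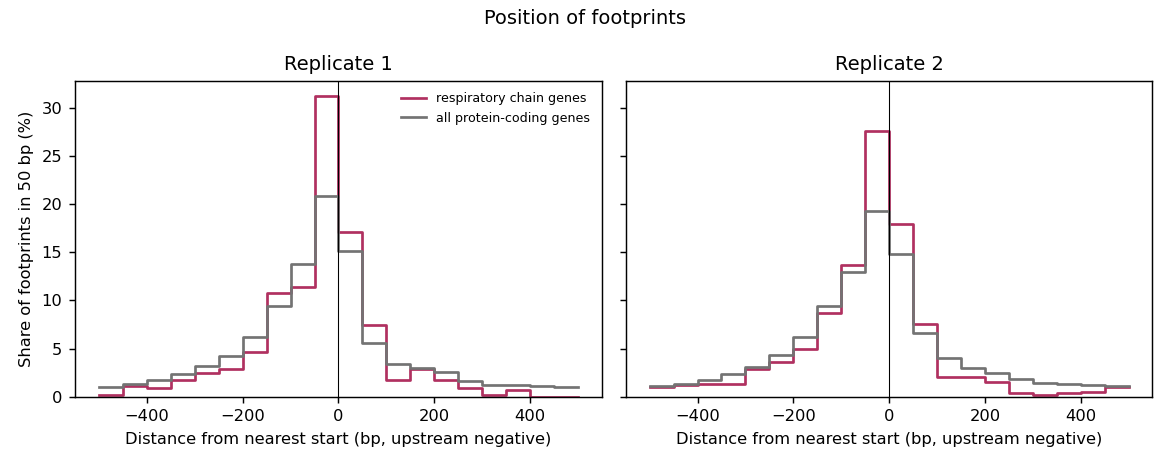
Share of footprints (y axis, %) in bins of 50 bp by distance from the nearest start (x axis, bp, upstream negative) for respiratory chain genes (red) and all protein-coding genes (grey), with a footprint counted once for each gene. In both replicates the tallest red bin is the 50 bp upstream of the start, at 31.2% and 27.6%.

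Motif letters were counted as exact matches on both strands from 250 bp upstream to 50 bp downstream of the 5′ end. NRF1 (GCGCATGCG) matched at 7 of 91 members (7.69%, interval 3.78% to 15.0%), against 2.2% of all protein-coding genes. ETS (CCGGAAG), the core of GABP sites, matched at 17 (18.7%, interval 12% to 27.9%), against 11%. YY1 matched at 4 (4.40%), against 1.7%, and the ERR letters TCAAGGTCA at 2, Sdhd and Atp5g3 (2.20%), against 0.49%. The letters ACTACAA of ZNF143 matched at 7 (7.69%), against 3.83%. SP/KLF (39 members, 42.9%, against 43.7%), NFY (36 members, 39.6%, against 38.6%), TATA (12 members, 13.2%, against 12.7%) and the muscle E-box (14 members, 15.4%, against 15.5%) lay near the share of all genes. CRE matched at 4 (4.40%, against 2.43%), the E-box CACGTG at 8 (8.79%, against 7.82%), and MEF2 at Cox6a2 alone (1.10%, against 0.49%).

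With both sets limited to genes with a promoter peak in both replicates, several shares moved. The ETS shares were then closer, at 17 of 81 members (21%, interval 13.5% to 31.1%), against 18.2% of all such genes. SP/KLF matched at 35 (43.2%, interval 33.0% to 54.1%), against 61.3%, and TATA at 9 (11.1%, interval 5.96% to 19.8%), against 6.8%. NRF1 matched at 7 (8.64%, interval 4.25% to 16.8%), against 3.89%. YY1 and CRE each matched at 4 (4.94%), against 3.02% and 3.9%, ERR at 2 (2.47%), against 0.333%, and the ZNF143 letters at 7 (8.64%), against 4.46%. NFY (39.5%, against 39.8%), the E-box (8.64%, against 10.5%) and the muscle E-box (12.3%, against 14.4%) lay near or below the share of such genes, and MEF2 matched at 0 of 81, against 0.305%. Counted with or without a peak, mitochondrial ribosome genes had NRF1 at 5 of 78 (6.41%) and ETS at 27 (34.6%), and proteasome genes had NRF1 at 1 of 39 (2.56%) and ETS at 12 (30.8%).

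**Figure D5:**
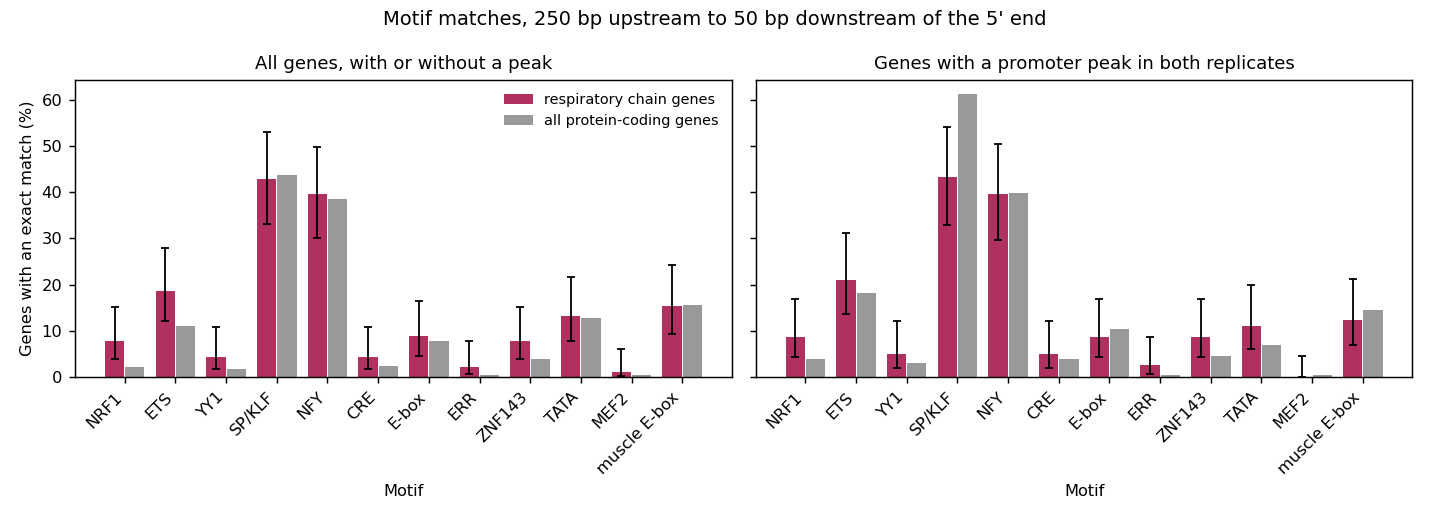
Share of genes (y axis, %) with an exact match to each of 12 motifs for respiratory chain genes (red, with 95% Wilson intervals) and all protein-coding genes (grey), over all genes on the left and genes with a promoter peak in both replicates on the right. The ETS interval begins above the grey bar on the left (12%, against 11%) and spans it on the right, while the SP/KLF bars are nearly level on the left and apart on the right (43.2%, against 61.3%).

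At some members, such as Cox7a2l, Atp5d, Atp5f1 and Atp5g2, the highest peak lay over 500 bp from the gene's 5′ end, so the count was repeated from the RefSeq starts of the same build, an alternative chosen after the data were seen. Of 90 symbols 73 matched. NRF1 then matched at 10 of 73 (13.7%), against 2.73% of all genes matched, ETS at 18 (24.7%), against 13.5%, and YY1 at 8 (11%), against 2.22%. Below the share of all genes lay TATA at 7 (9.59%, against 14.6%), the muscle E-box at 6 (8.22%, against 17.7%) and SP/KLF at 34 (46.6%, against 51.4%). These shares take genes with or without a peak, and the TATA share was thus not above that of all genes under every choice of start.

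Letters of NRF1 and YY1 took a larger share of member footprints than of all footprints. A match counts if its centre lies in the footprint. NRF1 letters occurred in 2.20% and 2.05% of member footprints, against 0.85% and 0.675% of all footprints within 500 bp of a start. YY1 letters occurred in 0.879% and 2.05% (4 and 12 footprints), against 0.310% and 0.286%. For ETS the shares were 1.54% and 2.05%, against 1.05% and 1.31%. For CRE they were 1.10% and 0.685%, against 0.601% and 0.557%, and for NFY 1.98% and 2.74%, against 1.82% and 2.17%. The Wilson intervals of the member shares for ETS, CRE and NFY held the share of all footprints in both replicates. SP/KLF letters occurred in 7.25% and 7.71%, against 10.7% and 11.1%. In both replicates NRF1 letters were centred in a footprint at 10 members. These were Ndufa8, Ndufa11, Ndufaf5, Uqcr11, Uqcrc1, Cox6a1, Cox6c, Atp5g2, Atp5k and Atp5l, of complexes I, III, IV and V. No share over all genes is given for this count or for the YY1 and CRE members below, so none is read as high or low. The footprints with NRF1 letters had a median width of 19.5 bp in each replicate, against 10 and 11 bp for all member footprints. Those with NFY letters had 19 and 21 bp, with CRE letters 22 and 27 bp and with SP/KLF letters 13 and 14 bp. Since a match counts by its centre, a wider footprint has more room to hold one, so these widths do not set NRF1 apart. YY1 letters lay in a footprint of both replicates at Ndufaf8, Uqcrc1 and Uqcrh among others, and CRE letters at Atp5d, Ndufa10, Ndufb2 and Uqcrfs1. A TATA match lay in one at Ndufa7 only, and neither ERR nor MEF2 letters lay in any member footprint of either replicate. Both were as rare over all genes, with ERR letters in 0 of 56384 and 3 of 84401 footprints and MEF2 letters in 2 and 7. Their absence at members is thus not read as a result.

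The genes that assemble and regulate the chain were mostly open too. Of 58 listed genes, 56 had a promoter peak in replicate 2, against 61.2% of all protein-coding genes, and 54 had one in both replicates, against 52%. All 17 listed assembly factors of complex IV had one, as did 6 of 6 further factors of complex I and 6 of 6 genes of mitochondrial transcription, among them Tfam (2.25 and 4.85), which packages mitochondrial DNA. Sdhaf1, a complex II assembly factor, had no peak in either replicate. Cytochrome c showed the isoform pattern again, since the testis form Cyct had none, against 4.19 and 6.83 at the general form Cycs.

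Among the 12 regulators, Esrra, which encodes ERR alpha, had the highest signal in both replicates with 4.23 and 10.1, followed by Sp1 with 3.69 and 8.06. Yy1 had 2.76 and 5.45, Pprc1 2.63 and 3.75, Gabpb2 2.58 and 3.57, Nrf1 2.14 and 3.92, Gabpa 2.12 and 4.14 and Gabpb1 1.97 and 3.57. Ppargc1b, a PGC-1 coactivator, had 1.14 and 2.50, and Esrrb had 0.813 and 1.04. The promoters of Ppargc1a, which encodes PGC-1 alpha, and Esrrg, which encodes ERR gamma, had a peak in replicate 2 only, with 0.738 and 0.981. Both were in the longer list of each replicate.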

How the data were processed

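DNase-seq libraries of frontal cortex (1 group, 2 biological replicates) were analysed from the files the authors deposited, which are on mm10 per the labels. The peak signal deposited by the authors is a density normalized for read depth. The p-value column of the deposited cleavage table is an FDR per interval, listed only below 0.05. The footprint score deposited by the authors is 0.01 throughout and ranks nothing. The aligner, callers and their settings were not given in the sources used here. Of the 2 peak lists per library the shorter was the main one.

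Starts were all transcript starts of GENCODE M21. A promoter peak overlapped the 500 bp to either side of a start by at least 1 bp, and its highest signal was kept. A footprint was counted by its midpoint. Sequence was read from GRCm38, and 12 motifs were matched exactly. Head-to-head neighbours started at most 1000 bp upstream on the opposite strand. Python 3.11.15, pandas 2.3.3, pysam 0.24.0 and samtools 1.23.1 were used, and overlap calls and motif search were tested on simulated data. Wilson intervals have a confidence level of 95%.

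Members and lists were chosen with earlier results of these data known. Genes named are members without a promoter peak in both replicates, the highest and lowest per complex, isoform pairs, and pathway genes without a peak in both or that regulate the chain; core subunits, neighbours, footprint-rich members and other roles were named after their values were seen. No test between groups was possible with 1 group. Alternatives were TSS windows of 250 and 1000 bp, 1 start per gene, peak midpoints, the longer list, the 50% of peaks with the highest signal, lists of equal length, footprints in peaks only, structural subunits only, other motif windows and leaving out each replicate. The values of 1 member are not reported here.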

Additional observations from a re-analysis of the deposited data

How the results depend on the processing

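The count of members with a promoter peak in both replicates was 78 to 83 under other windows, starts, overlap rules and peak lists, and 73 of the 83 members left without assembly factors. It was 82 without replicate 1 and 81 without replicate 2. Median signals moved by less than the spread between replicates, and the median log2 ratio of replicate 2 over replicate 1 was 0.72 to 0.74. The median number of footprints per member in replicate 1 was 4 with a TSS window of 250 bp, with 1 start per gene and for footprints in peaks only, and in replicate 2 it was 5 for footprints in peaks only. Members with a motif in a footprint of both replicates numbered 4 for ETS, 19 for SP/KLF, 6 for NFY, 3 for the muscle E-box, 1 for TATA and 0 for the E-box, ERR, the ZNF143 letters and MEF2. No share over all genes is given for these counts or for those of NRF1, YY1 and CRE, so they are not read as high or low. From RefSeq starts the counts were 8 for YY1 (11%, against 2.22% of all genes matched), 7 for TATA (9.59%, against 14.6%) and 6 for the muscle E-box (8.22%, against 17.7%). MEF2 had 0 (against 0.493%), because Cox6a2 was not among the symbols matched. With 100 bp to each side, TATA matched at 3 (3.30%, against 8.17% of all genes). Other counts stayed within 1.5 times the reported ones. No paired analysis was possible because both replicates belong to 1 group. Replicate 1 had fewer peaks, which limits what can be called absent there, and the cause of that difference was not tested. A promoter without a peak may still be open in few cells. Sequences are those of the reference strain, and 2 replicates with the same donor label give little measure of variation between animals.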
